A study of Homo sapiens with 9 samples.

Results

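The response of cells to unfolded protein and to amino acid shortage was followed here as a set of 33 named genes, of 19775 genes measured by a probe set annotated to 1 gene. The set holds 14 genes for folding and degrading proteins in the endoplasmic reticulum (ER), 16 genes of the branch run by the transcription factor ATF4, and the factors XBP1, ATF4 and ATF6 themselves. Members were chosen by symbol, and each was read from its probe set with the highest mean over the 9 arrays. Total RNA came from 3 human cell lines derived from MCF-10A breast epithelium, with 3 arrays per line that the labels call biological replicates. MIV is the line MCF-10A1a, a metastatic carcinoma, MIII is MCF-10A1h, a carcinoma, and MII is MCF-10AT1Kcl2, a carcinoma in situ. Such derivatives are known to descend from MCF-10A cells transformed with activated HRAS. All were grown untreated in the same medium, which held horse serum, insulin, cholera toxin, epidermal growth factor and hydrocortisone, so no group was given an ER poison or starved of an amino acid. Each stage was represented by a single line, and stage and line cannot be told apart. The labels do not say whether the replicates were separate cultures, and the p-values cover the spread among arrays of a line, which may be technical only.

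The unfolded protein response answers a shortage of folding capacity in the ER. Sensors in the ER membrane release or make the factors ATF6 and spliced XBP1, which switch on chaperones and the machinery that sends misfolded proteins to the proteasome. A further sensor, PERK, phosphorylates a translation initiation factor, and this favours translation of ATF4. The kinase GCN2 reaches ATF4 by the same step when amino acids run short, and ATF4 then raises enzymes of asparagine and serine synthesis, amino acid transporters and the factor DDIT3. Breast epithelium makes much secreted and membrane protein, and both branches are widely studied in breast cancer.

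The values are MAS5 signals on a linear scale, and changes are differences in log2(signal + 18.3) given with their standard error (SE), so that the change of a dim gene is understated. "Rose" and "fell" are used for a Benjamini-Hochberg adjusted p under 0.05 from limma over 12594 genes, and a gene is "called" where the change also reached 2-fold. Of the 33 members, 32 passed the filter on low signals. CHAC1, an enzyme that breaks down glutathione, did not pass: its signals were 23.8, 46.7 and 57.8 in MIV, against 52.8, 32 and 19.4 in MIII and 62.1, 68.9 and 87.1 in MII, and 8 of the 9 were under the pooled median of 69.3. The number of arrays limits the precision.

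The arrays were close in brightness, with median signals between 64.7 and 74.9. Pairs of arrays of a line correlated at 0.986 or more in log2(signal + 18.3) across the 12594 genes tested. Of 9 epithelial markers, 8 were above the pooled median in every line (KRT19 was under it). That is a low cut, which 12594 of 19775 genes passed on at least 3 arrays, and it does not settle the cell type. Markers of other cell types differed between lines. Of 8 fibroblast markers, 6 lay above the pooled median in MIII, 2 in MIV and 3 in MII, and their summed signal was 757.4 to 848.7 in MIV, 4897 to 5203 in MIII and 1096 to 1150 in MII. Of 6 fibroblast markers tested in MIII against MII, 4 rose (DCN, COL3A1, THY1 and LUM), FAP fell by 0.72 ± 0.11 and COL1A1 had -0.18 ± 0.18 (adjusted p = 0.431). Of all genes tested, 22.9% rose and 24.3% fell there. COL3A1, LUM and THY1 would not have passed the filter on low signals without their MIII arrays, so the count of rises was partly set by the filter. The summed leukocyte markers were 469.8 to 478.8 in MIV, 702.9 to 770 in MIII and 1566 to 1713 in MII, where CD14 was brightest, and the summed adipocyte markers were 161.2 to 203 in MIV, 609.1 to 671.9 in MIII and 593.6 to 645.3 in MII. The similar adipocyte sums of MIII and MII hide opposite changes. In MIII against MII, CIDEC rose by 1.30 ± 0.16 and LPL fell by 1.97 ± 0.23. PLIN1 also rose there, and it passed the filter through its MIII arrays alone. The fibroblast markers COL1A2 and PDGFRB were under the median in all 3 lines, as were PTPRC and LST1 of leukocytes, VWF, CDH5, TEK and CLDN5 of the endothelium, and ADIPOQ and LEP of adipocytes. Of 12 epithelial markers listed, 9 had a probe set annotated to 1 gene and 8 were tested. Of these 8, 0 rose and 6 fell in MIII against MII (limma; at an unadjusted p under 0.05 also 0 rose and 6 fell), beside 22.9% and 24.3% of all genes tested. Among those that fell were EPCAM, a surface adhesion protein (-2.20 ± 0.07), and CDH1, the epithelial cadherin (-3.19 ± 0.05). The basal keratin KRT14 averaged 137 in MIV, 957 in MIII and 2155 in MII. These markers move with the line comparisons below, and their part in those results was not tested. In RNA from whole cultures, fewer cells of a type and less RNA per cell cannot be told apart.

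Most members had their highest mean in MIII. This held for 22 of 32 members (68.8%), beside 4503 of 12594 genes tested (35.8%), and for 12 of the 14 ER chaperone and degradation members and 10 of the 15 tested ATF4 branch members. MIV had the highest mean for 7 members (21.9%) and MII for 3 members (9.38%), beside 31.2% and 33.0% of all genes. The heat map of members shows this as a red middle block for the ER members, and shows TRIB3 as the member that runs the other way by the widest margin.

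In MIV against MIII, 4 of 32 members rose and 20 fell, beside 25.3% and 26.6% of all genes tested, and the median change was -0.26, beside -0.01 for all genes. With the 2-fold threshold 1 member was called higher (TRIB3) and 1 lower (STC2), beside 4.95% and 7.79% of all genes. In MIV against MII, 6 members rose and 6 fell, beside 20.0% and 22.2%. There 1 member was called higher (TRIB3) and 0 lower, beside 2.96% and 5.18%. At an unadjusted p under 0.05 without a fold threshold, 6 members were higher and 10 lower, beside 2872 and 3273 of the 12594 genes tested. In MIII against MII, 20 members rose and 5 fell, beside 22.9% and 24.3%, with a median change of 0.27, beside -0.02 for all genes. There 2 members were called higher (STC2 and DDIT3) and 0 lower, beside 6.17% and 5.55%. At an unadjusted p under 0.05, 20 members were higher and 5 lower there, beside 3225 and 3483 of the 12594 genes tested. Probe sets of ATF6 and CEBPG disagreed in sign. Both genes count among the 4 that rose in MIV against MIII and the 5 that fell in MIII against MII. The 3 comparisons share arrays, so a high MIII level enters both comparisons that hold MIII. Most member changes were thus smaller than 2-fold, and the plot of changes with their SE shows how few points pass the dashed lines.

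**Figure D1:**
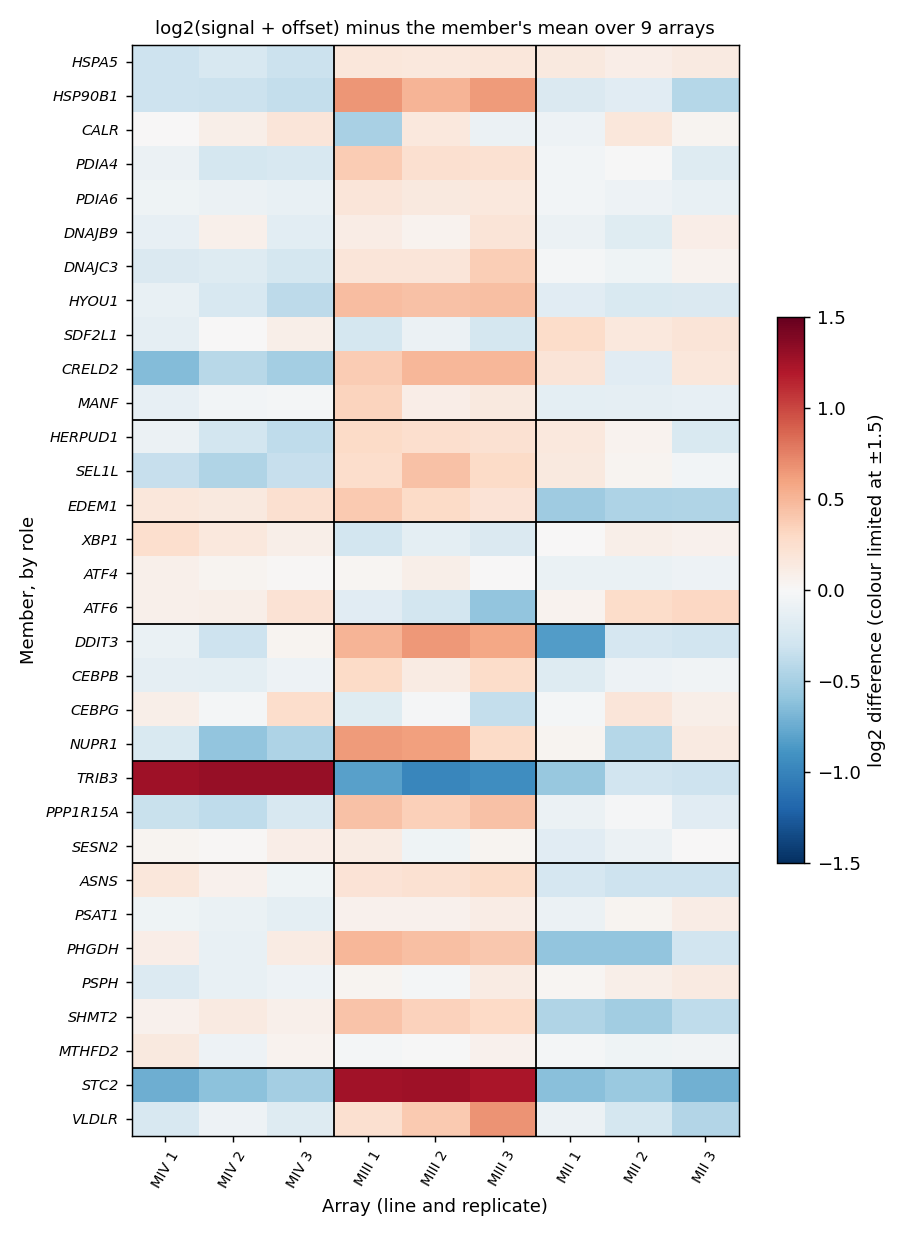
Heat map of the 32 tested members (rows, by role) on the 9 arrays (columns, MIV, MIII and MII). Colour gives log2(signal + offset) minus the member's mean over the 9 arrays, red above and blue below. The 3 MIII arrays are above the mean for most ER members, and TRIB3 is above it on the 3 MIV arrays.

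**Figure D2:**
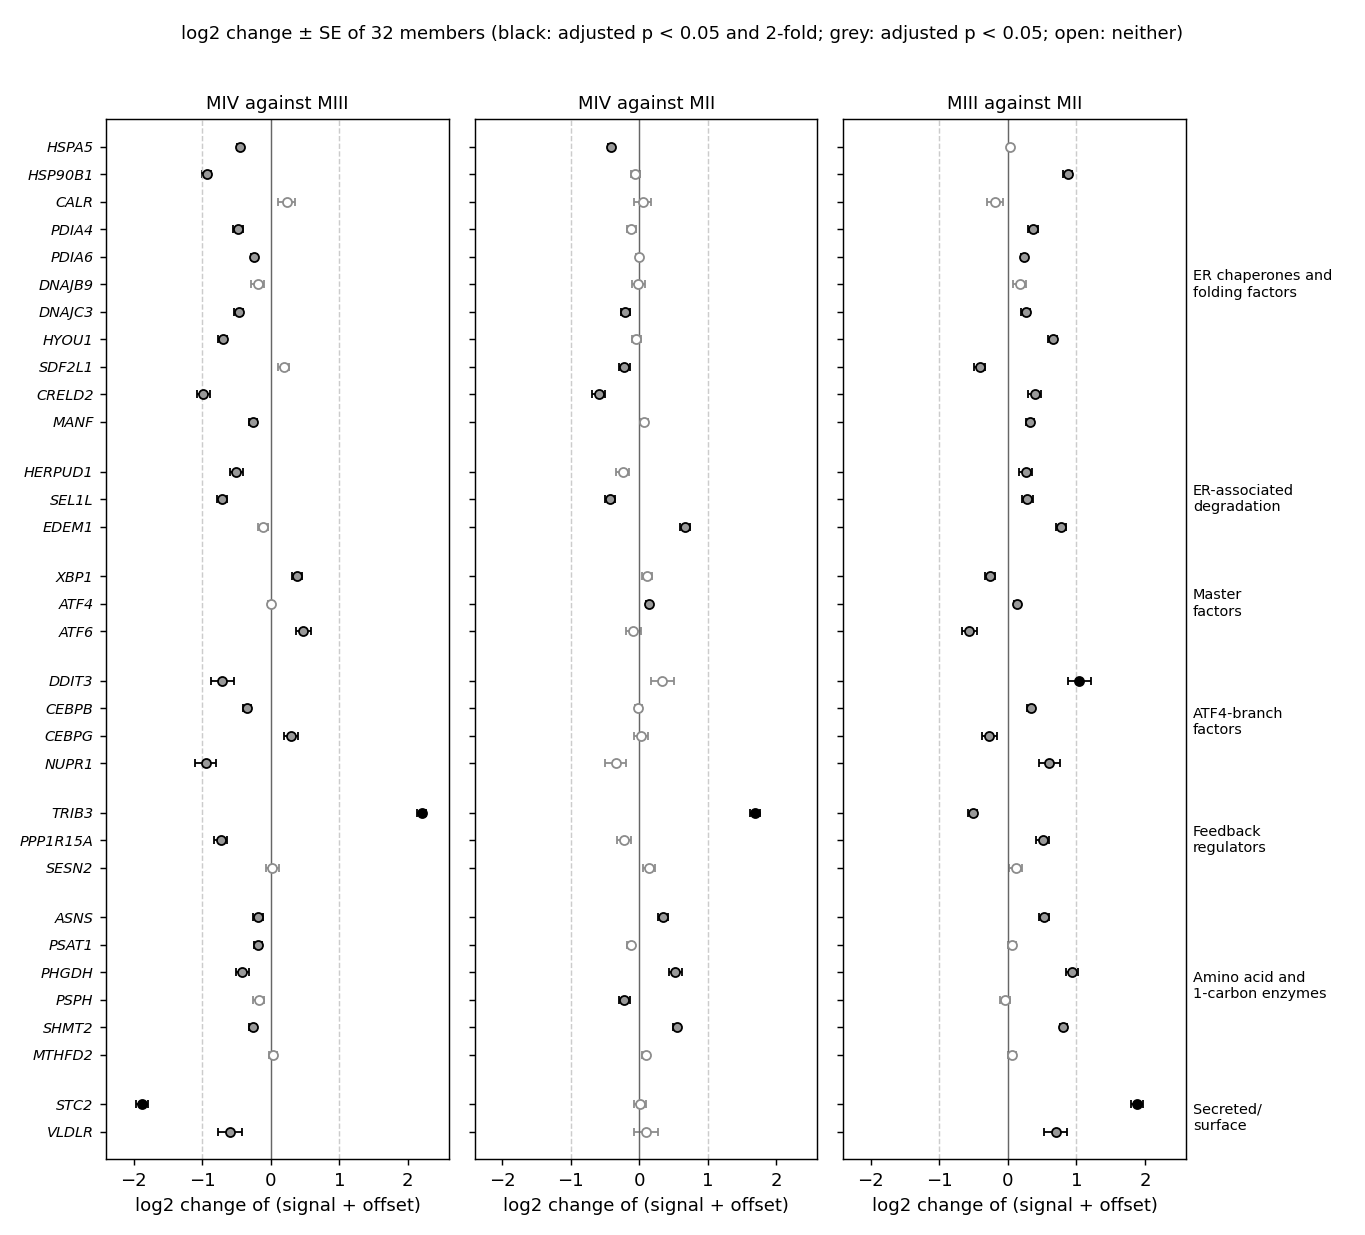
log2 change (horizontal axis) of each tested member in the 3 comparisons, with bars for the SE and dashed lines at 2-fold. Black points passed an adjusted p under 0.05 and 2-fold, grey points passed the adjusted p alone and open points passed neither. TRIB3, STC2 and DDIT3 are the only members with a black point in any panel.

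Most ER chaperones were lower in MIV than in MIII and higher in MIII than in MII, by less than 2-fold on the probe sets used. Of 11 chaperones and folding factors, 0 rose and 8 fell in MIV against MIII (limma; 1 rose at an unadjusted p under 0.05). In MIII against MII, 7 rose and 1 fell. In MIV against MII, 0 rose and 4 fell, and at an unadjusted p under 0.05 again 0 rose and 4 fell. The median change of the 11 was -0.46, -0.06 and 0.26 in MIV against MIII, MIV against MII and MIII against MII. Of all genes tested, 25.3% rose and 26.6% fell, 20.0% and 22.2%, and 22.9% and 24.3% in that order.

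HSPA5 encodes BiP, the ER HSP70 chaperone that also holds the stress sensors inactive. Its signals were 14939, 15627 and 14778 in MIV, against 20835, 20616 and 20731 in MIII and 20537, 19776 and 20272 in MII. The 3 MIV arrays lay below all 6 others, and the MIII and MII arrays lay close together without overlapping. HSPA5 fell by 0.46 ± 0.04 in MIV against MIII (adjusted p = 4.13e-07) and by 0.42 ± 0.04 in MIV against MII (adjusted p = 1.71e-06), and had 0.04 ± 0.04 in MIII against MII (adjusted p = 0.473). A second, much dimmer HSPA5 probe set gave -1.37 ± 0.11, -0.69 ± 0.11 and 0.68 ± 0.11 in the same 3 comparisons. Both probe sets fell in MIV, by unequal amounts. The dimmer one passed 2-fold in MIV against MIII and, unlike the one used, rose in MIII against MII (adjusted p = 0.000263).

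HSP90B1 encodes GRP94, the ER member of the HSP90 family. Its signals were 4220, 4174 and 4071 in MIV, against 8294, 7454 and 8162 in MIII and 4488, 4657 and 3891 in MII. MIII stood above both other lines, whose arrays overlapped. HSP90B1 fell by 0.94 ± 0.07 in MIV against MIII (adjusted p = 4.82e-08), rose by 0.88 ± 0.07 in MIII against MII (adjusted p = 1.02e-07) and had -0.06 ± 0.07 in MIV against MII (adjusted p = 0.508). Its second probe set, also of a kind that can bind related transcripts, gave -1.05 ± 0.12 in MIV against MIII and so passed 2-fold there.

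CRELD2, a secreted ER protein induced by stress, came nearest to the 2-fold threshold among the chaperone group. Its signals were 1455, 1713 and 1616 in MIV, against 3006, 3257 and 3251 in MIII and 2638, 2043 and 2594 in MII. The 3 lines did not overlap, with MIV lowest and MIII highest. CRELD2 fell by 0.99 ± 0.09 in MIV against MIII (adjusted p = 7.96e-07) and by 0.59 ± 0.09 in MIV against MII (adjusted p = 0.000158), and rose by 0.39 ± 0.09 in MIII against MII (adjusted p = 0.00304). Without MIII replicate 1 or MIV replicate 2 its change in MIV against MIII was -1.02 or -1.04, past 2-fold.

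HYOU1, a large HSP70 relative that recharges BiP with nucleotide, repeated the pattern of HSP90B1. Its signals were 2863, 2611 and 2343 in MIV, against 4269, 4188 and 4231 in MIII and 2751, 2625 and 2662 in MII. The MIII arrays lay above all others, and MIV and MII overlapped. HYOU1 fell by 0.70 ± 0.07 in MIV against MIII (adjusted p = 8.97e-07) and rose by 0.66 ± 0.07 in MIII against MII (adjusted p = 1.95e-06). The array values of HSP90B1, CRELD2 and HYOU1 are given because of the size of their changes and were chosen after these were seen.

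The remaining chaperones changed less. The disulfide isomerases PDIA4 and PDIA6 fell by 0.48 ± 0.07 and 0.25 ± 0.04 in MIV against MIII and rose by 0.36 ± 0.07 and 0.24 ± 0.04 in MIII against MII. DNAJC3, a co-chaperone that restrains PERK, fell by 0.47 ± 0.06 in MIV against MIII and by 0.21 ± 0.06 in MIV against MII (there not without MII replicate 3 or MIV replicate 3, adjusted p = 0.0783 and 0.0634), and rose by 0.26 ± 0.06 in MIII against MII. MANF, a small secreted protein of the stressed ER, fell by 0.26 ± 0.06 in MIV against MIII and rose by 0.33 ± 0.06 in MIII against MII. DNAJB9, a J-domain partner of BiP, had -0.19 ± 0.09 and 0.17 ± 0.09 in those comparisons and passed the test in none (adjusted p = 0.117, 0.925 and 0.154).

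SDF2L1 and, on the probe set used, CALR did not have their highest mean in MIII. SDF2L1, an ER protein that acts with BiP and its J-domain partners, had 1140 ± 90.4 in MIV, 996 ± 71.9 in MIII and 1330 ± 55.5 in MII (signal, SD, n = 3 each). It fell by 0.41 ± 0.08 in MIII against MII (adjusted p = 0.000785) and by 0.22 ± 0.08 in MIV against MII (adjusted p = 0.0416). The fall in MIV against MII kept an adjusted p under 0.05 in 11 of 21 alternatives and lost it without any 1 of the 3 MII arrays, MIV replicate 1 or MIV replicate 2, with adjusted p up to 0.166. CALR, the calcium-binding lectin chaperone calreticulin, had 7649 ± 479 in MIV, 6603 ± 1446 in MIII and 7399 ± 618 in MII, with overlapping arrays in every pair. Its change passed the test in none of the comparisons (adjusted p = 0.125, 0.778 and 0.234), and 0.23 ± 0.12 in MIV against MIII stood beside -0.01 ± 0.07 and -0.04 ± 0.08 on its other probe sets. The dimmest of these was higher by 0.27 ± 0.08 in MIII against MII (adjusted p = 0.0103) and by 0.23 ± 0.08 in MIV against MII (adjusted p = 0.0277), with its highest mean in MIII, while the one used gave -0.18 ± 0.12 and 0.05 ± 0.12. No direction is given for CALR.

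**Figure D3:**
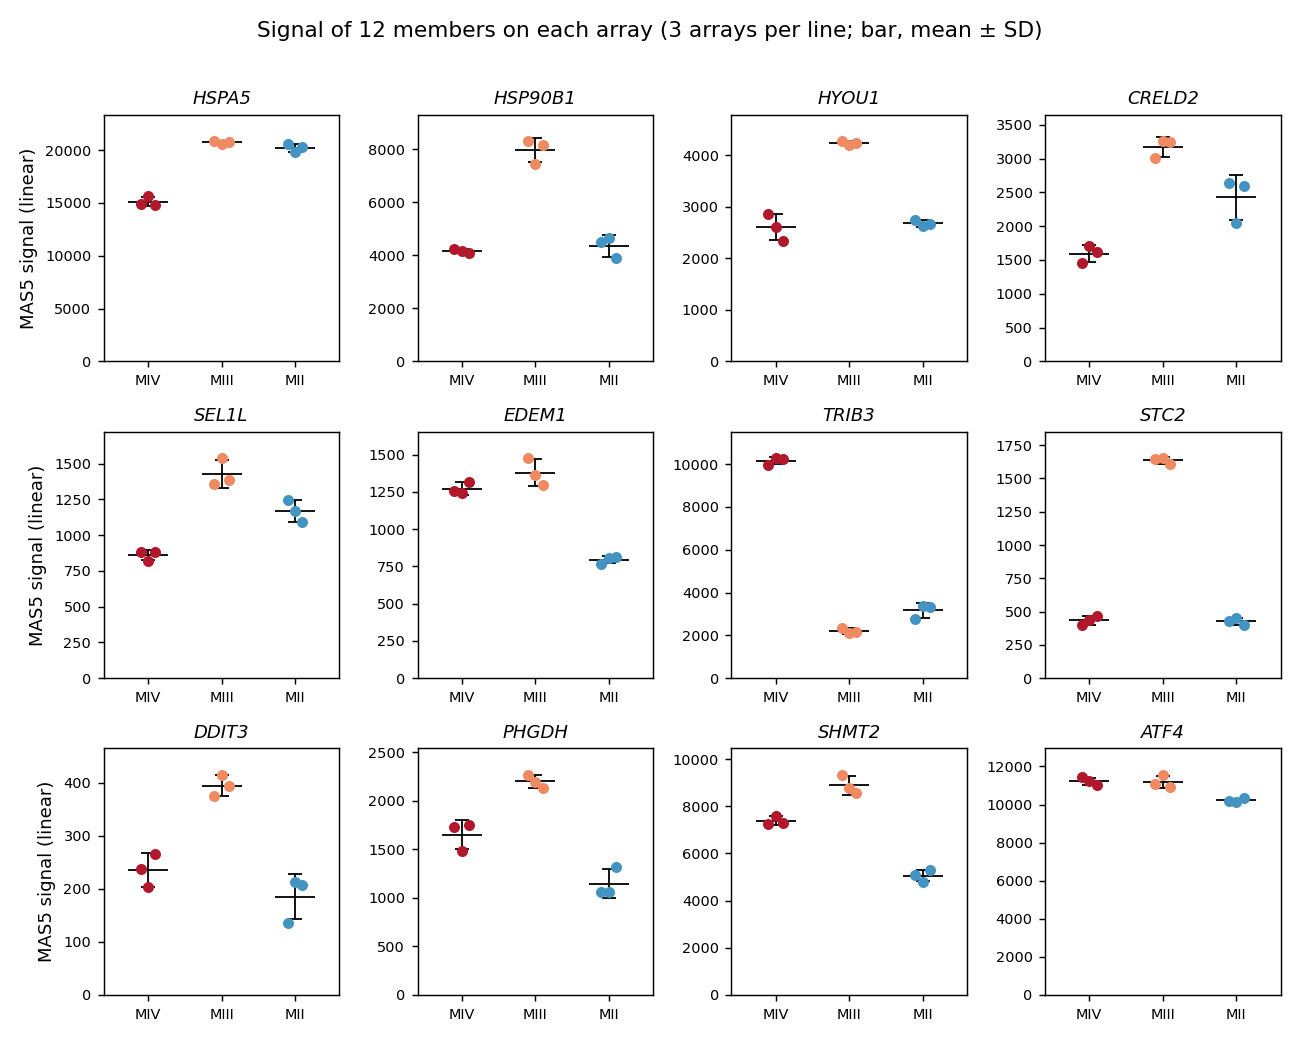
MAS5 signal (vertical axis, linear, from 0) of 12 members on each array, with the mean and SD of the 3 arrays of a line as bars. HSP90B1, HYOU1 and STC2 stand higher in MIII than in both other lines, TRIB3 stands higher in MIV, and ATF4 differs little between lines.

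Because the chaperones share known promoter elements, the start-site windows of the members were read for them. RefSeq windows (GRCh38.p14, 250 bases before to 50 after the start) were held for 30 members in 40 windows, and not for NUPR1, PSPH and SHMT2. The ER stress element (ERSE), which ATF6 with NF-Y and XBP1 can bind, was searched on both strands as CCAAT, 9 bases of any kind and CCACG. It was found in 27 of 35116 windows of all genes (0.0769%), which belong to 25 of 27305 genes (0.0916%). Among members it was found in 5 of the 11 chaperones, namely HSPA5, HSP90B1, CALR, PDIA6 and CRELD2, and also in XBP1. ERSE-II, searched as ATTGG, 1 base of any kind and CCACG, was found in 19 windows (0.0541%) of 19 genes (0.0696%), among them HYOU1, SDF2L1 and HERPUD1. The UPR element TGACGTGG was found in 0.729% of windows and 0.927% of genes. Among members it was found in HYOU1 alone, where it overlaps an ERSE-II. The core TGATGNAA of the element that ATF4 binds with C/EBP factors was found in 3.62% of windows and 4.46% of genes. Among members it was found in CEBPG, CHAC1 and ASNS, 3 of the 13 ATF4 branch members with a window, and in HERPUD1. These are matches of letters, and the arrays do not measure binding.

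Stretches around the matches are shown for HSPA5, HSP90B1, CRELD2 and HYOU1, whose signal was lower in MIV than in MIII. ASNS is shown as the amino acid enzyme with a match. PDIA6 also holds an ERSE and fell in MIV against MIII, but its stretch is not shown. Each stretch shown is printed 5′ to 3′ along the gene's own strand with the matched letters in capitals. HSPA5 is at chr9:125241366-125241434 on the minus strand, HSP90B1 at chr12:103930191-103930364 on the plus strand, CRELD2 at chr22:49918529-49918597 on the plus strand, HYOU1 at chr11:119057249-119057418 on the minus strand, and ASNS at chr7:97872444-97872501 on the minus strand. All lie upstream of the start.
HSPA5: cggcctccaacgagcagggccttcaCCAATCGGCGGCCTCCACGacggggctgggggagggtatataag
HSP90B1: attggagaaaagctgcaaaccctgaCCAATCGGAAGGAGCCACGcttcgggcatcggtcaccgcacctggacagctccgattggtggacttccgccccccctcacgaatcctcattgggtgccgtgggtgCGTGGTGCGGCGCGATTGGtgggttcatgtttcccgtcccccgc
CRELD2: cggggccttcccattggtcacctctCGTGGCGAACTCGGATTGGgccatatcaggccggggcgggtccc
HYOU1: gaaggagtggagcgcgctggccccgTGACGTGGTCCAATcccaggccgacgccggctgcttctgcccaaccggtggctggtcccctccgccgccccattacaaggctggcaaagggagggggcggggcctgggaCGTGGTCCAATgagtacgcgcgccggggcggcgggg
ASNS: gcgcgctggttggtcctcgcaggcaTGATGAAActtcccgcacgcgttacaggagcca
HSPA5 carries its ERSE on the gene's own strand at bases -66 to -48 from the start, and CRELD2 carries its match on the opposite strand at -80 to -62. HSP90B1 carries 2 matches, at -194 to -176 and, on the opposite strand, at -89 to -71. Of the chaperones with an ERSE, HSPA5, HSP90B1, PDIA6 and CRELD2 fell in MIV against MIII and CALR did not pass the test. PDIA4, DNAJC3 and MANF, with neither ERSE nor ERSE-II in these windows, fell as well. Of the members with an ERSE-II, HYOU1 and HERPUD1 fell in MIV against MIII, and SDF2L1 had 0.19 ± 0.08 (adjusted p = 0.0626). XBP1, which holds an ERSE, rose there by 0.38 ± 0.07.

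**Figure D4:**
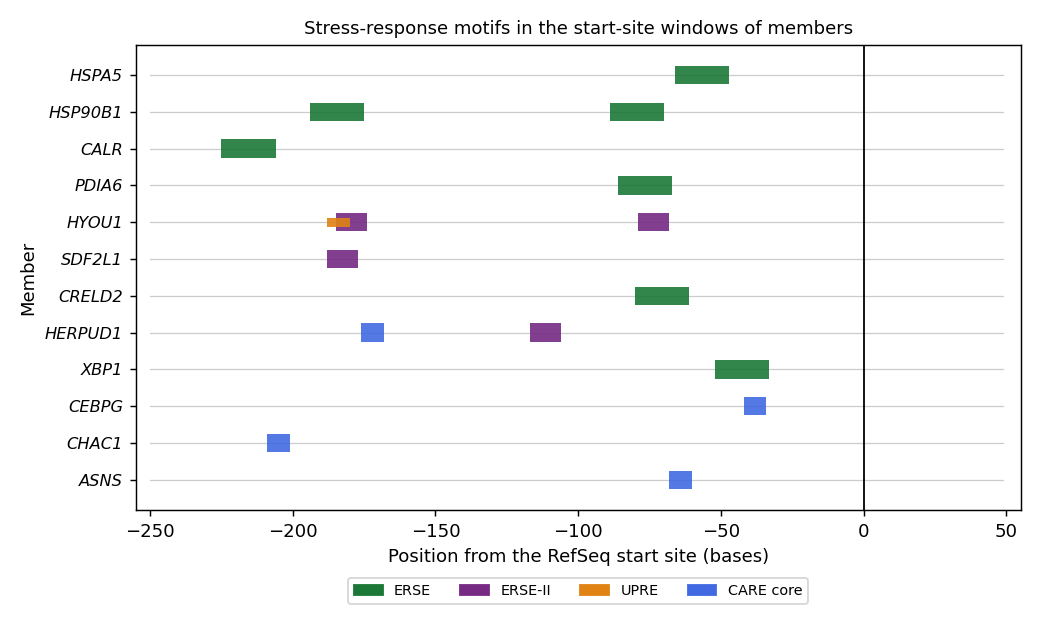
Positions of motif matches (coloured boxes) in the start-site windows of the 12 members with a match, in bases from the RefSeq start site (0). ERSE boxes belong to chaperones and XBP1, and boxes of the ATF4 element core to HERPUD1, CEBPG, CHAC1 and ASNS.

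Of the 3 members for ER-associated degradation, SEL1L and EDEM1 rose in MIII against MII, HERPUD1 passed the test there by a narrow margin, and SEL1L and HERPUD1 fell in MIV against MIII. HERPUD1, a membrane scaffold of the degradation complex, had signals of 1652, 1453 and 1343 in MIV, against 2145, 2093 and 2060 in MIII and 1957, 1824 and 1497 in MII. Its MIII arrays lay above all others, and MIV and MII overlapped. HERPUD1 fell by 0.50 ± 0.10 in MIV against MIII (adjusted p = 0.000555) and rose by 0.26 ± 0.10 in MIII against MII (adjusted p = 0.0384). The rise kept an adjusted p under 0.05 in 14 of 21 alternatives and lost it without any 1 of the MIII arrays or without MII replicate 3, where it was 0.15 (adjusted p = 0.187). SEL1L, the adaptor of the ubiquitin ligase HRD1, fell by 0.71 ± 0.08 in MIV against MIII and by 0.43 ± 0.08 in MIV against MII, and rose by 0.28 ± 0.08 in MIII against MII. EDEM1, which hands misfolded glycoproteins to this route, was higher in MIV and MIII than in MII: it rose by 0.66 ± 0.07 in MIV against MII (adjusted p = 6.06e-06) and by 0.78 ± 0.07 in MIII against MII (adjusted p = 8.14e-07), and had -0.11 ± 0.07 in MIV against MIII (adjusted p = 0.21). Its means were 1272 ± 42.0 in MIV, 1380 ± 92.0 in MIII and 796 ± 26.3 in MII (signal, SD, n = 3 each).

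Of the 3 factors that start the response, XBP1 was lowest in MIII, ATF4 differed little and ATF6 had probe sets of opposite sign. XBP1, whose mRNA is spliced by the sensor IRE1 into its active form, had 1212 ± 67.0 in MIV, 928 ± 42.7 in MIII and 1117 ± 35.0 in MII (signal, SD, n = 3 each). It rose by 0.38 ± 0.07 in MIV against MIII (adjusted p = 0.000557) and fell by 0.26 ± 0.07 in MIII against MII (adjusted p = 0.00828). Averaged with its other probe set, whose signals were 2.3 to 18.9, its change in MIV against MIII was -0.0045. Splicing of XBP1 was not analysed here.

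ATF4 mRNA differed little between lines. Its signals were 11426, 11213 and 11037 in MIV, against 11077, 11564 and 10920 in MIII and 10170, 10138 and 10329 in MII. MIV and MIII overlapped, and both lay above MII. ATF4 had 0.01 ± 0.04 in MIV against MIII (adjusted p = 0.932) and rose by 0.14 ± 0.04 in MIV against MII (adjusted p = 0.018) and by 0.13 ± 0.04 in MIII against MII (adjusted p = 0.0193). The first of these rises lost its adjusted p without MII replicate 2 or MIV replicate 1 (0.0533 and 0.0646), and the second without MII replicate 2 or MIII replicate 2 (0.0559 and 0.0814). ATF4 is known to be set largely by translation, which the arrays do not measure.

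ATF6, the membrane-bound factor that is cut free under ER stress, depended on the probe set. The one used rose by 0.47 ± 0.11 in MIV against MIII (adjusted p = 0.00235) and fell by 0.56 ± 0.11 in MIII against MII (adjusted p = 0.00079). The other 3 probe sets of ATF6 had the opposite sign in both comparisons, and 2 of them passed the test in MIII against MII, with 0.43 ± 0.08 and 0.62 ± 0.19. The mean of its probe sets gave -0.09 and 0.20, so no direction is given for the gene.

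Of the transcription factors of the ATF4 branch, 3 of 4 rose in MIII against MII and fell in MIV against MIII. Of all genes tested, 22.9% rose in MIII against MII and 26.6% fell in MIV against MIII. DDIT3 encodes CHOP, the factor linked to cell death under lasting stress. Its signals were 238, 203 and 266 in MIV, against 374, 415 and 395 in MIII and 136, 212 and 208 in MII. The MIII arrays lay above all others, and MIV and MII overlapped. DDIT3 rose by 1.04 ± 0.17 in MIII against MII (adjusted p = 0.000168), a 2.06-fold difference on the offset scale, and fell by 0.71 ± 0.17 in MIV against MIII (adjusted p = 0.00302). Its call in MIII against MII rests on the dim array of MII replicate 1: without that array the change was 0.85, under 2-fold.

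CEBPB, a C/EBP factor that pairs with ATF4, had signals of 14559, 14361 and 15072 in MIV, against 19438, 17349 and 19226 in MIII and 13905, 15171 and 15355 in MII. MIII again lay above both other lines, which overlapped. CEBPB fell by 0.35 ± 0.05 in MIV against MIII and rose by 0.33 ± 0.05 in MIII against MII (adjusted p = 0.000101 and 0.000166). NUPR1, a small chromatin protein induced by stress, fell by 0.94 ± 0.15 in MIV against MIII (adjusted p = 0.000139) and rose by 0.60 ± 0.15 in MIII against MII (adjusted p = 0.00499), and without MIII replicate 3 or MIV replicate 1 the first change was -1.06 or -1.04, past 2-fold. CEBPG, a further partner of ATF4, rose by 0.30 ± 0.11 in MIV against MIII on the probe set used (adjusted p = 0.029), while its other probe set gave -0.45 ± 0.09 (adjusted p = 0.00133), so no direction is given for it. None of the 4 passed the limma test in MIV against MII. At an unadjusted p under 0.05, 1 of the 4 was lower there, beside 3273 of the 12594 genes tested.

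TRIB3, a pseudokinase induced through ATF4 and DDIT3 that dampens both and binds AKT, was the member with the largest change. Its signals were 9961, 10286 and 10246 in MIV, against 2346, 2090 and 2166 in MIII and 2778, 3369 and 3333 in MII. No line overlapped another, and the MIV arrays lay far above the rest. TRIB3 rose by 2.20 ± 0.07 in MIV against MIII (4.59-fold on the offset scale, adjusted p = 1.53e-11) and by 1.69 ± 0.07 in MIV against MII (3.22-fold, adjusted p = 4.37e-10), and fell by 0.51 ± 0.07 in MIII against MII (adjusted p = 4.29e-05). A second probe set gave 2.02 ± 0.08, 1.59 ± 0.08 and -0.44 ± 0.08. Both probe sets placed TRIB3 highest in MIV and lowest in MIII, where DDIT3 was highest.

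The other feedback genes did not share the rise of TRIB3. PPP1R15A encodes GADD34, which recruits the phosphatase that ends the translational block, and it fell by 0.73 ± 0.10 in MIV against MIII (adjusted p = 3.18e-05) and rose by 0.51 ± 0.10 in MIII against MII (adjusted p = 0.000879). In MIV against MII it had -0.23 ± 0.10 (adjusted p = 0.09). SESN2, a sestrin that restrains the growth kinase mTOR, had 0.03 ± 0.09, 0.14 ± 0.09 and 0.12 ± 0.09 in the 3 comparisons and passed the test in none (adjusted p = 0.849, 0.254 and 0.335).

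The enzymes of amino acid synthesis fell into those higher in MIV and MIII than in MII and those that differed little. PHGDH catalyses the first committed step of serine synthesis. Its signals were 1727, 1483 and 1747 in MIV, against 2268, 2195 and 2136 in MIII and 1058, 1058 and 1317 in MII (chosen after its change was seen). The 3 lines did not overlap. PHGDH rose by 0.53 ± 0.09 in MIV against MII (adjusted p = 0.000357) and by 0.94 ± 0.09 in MIII against MII (adjusted p = 1.18e-06), and fell by 0.41 ± 0.09 in MIV against MIII (adjusted p = 0.00164). Without MII replicate 3 its rise in MIII against MII was 1.04, past 2-fold. SHMT2, the mitochondrial enzyme that passes a carbon from serine to folate, had the same order, with 7394 ± 186 in MIV, 8897 ± 398 in MIII and 5063 ± 250 in MII (signal, SD, n = 3 each), and rose by 0.55 ± 0.05 in MIV against MII and by 0.81 ± 0.05 in MIII against MII. Its dimmest probe set gave 1.03 ± 0.09 in MIII against MII, past 2-fold.

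ASNS, which makes asparagine, rose by 0.35 ± 0.07 in MIV against MII (adjusted p = 0.00124) and by 0.53 ± 0.07 in MIII against MII (adjusted p = 2.62e-05). In MIV against MIII it had -0.18 ± 0.07 (adjusted p = 0.0435), which kept an adjusted p under 0.05 in 9 of 21 alternatives and lost it without any 1 of the MIII arrays, MIV replicate 2 or 3, or MII replicate 2 or 3, with adjusted p up to 0.189. Its other probe set, with signals of 2 to 24.3, was under the filter and was not tested. PSAT1 and PSPH, the next steps of serine synthesis, did not rise with PHGDH: PSAT1 had 0.06 ± 0.05 and PSPH -0.04 ± 0.08 in MIII against MII (adjusted p = 0.365 and 0.717). PSAT1 fell by 0.19 ± 0.05 in MIV against MIII, and PSPH fell by 0.22 ± 0.08 in MIV against MII, where its other probe sets gave -0.23 ± 0.12 and, near the pooled median, 0.19 ± 0.24. The PSPH fall lost its adjusted p without MII replicate 2 or 3 or MIV replicate 1 or 2, with values up to 0.123. MTHFD2, a mitochondrial folate enzyme, had signals of 9500, 8140 and 8859 in MIV, against 8364, 8534 and 8987 in MIII and 8365, 8211 and 8239 in MII. Its arrays overlapped in all 3 pairs, with changes of 0.03 to 0.09 and adjusted p = 0.672, 0.213 and 0.406.

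STC2, a secreted glycoprotein hormone induced through ATF4, was the member with the largest change in MIII against MII. Its signals were 397, 436 and 469 in MIV, against 1648, 1654 and 1608 in MIII and 431, 453 and 401 in MII. The MIII arrays lay far above the rest, and MIV and MII overlapped. STC2 fell by 1.87 ± 0.09 in MIV against MIII (adjusted p = 6.52e-10) and rose by 1.89 ± 0.09 in MIII against MII (3.71-fold on the offset scale, adjusted p = 6.52e-10), and had 0.02 ± 0.09 in MIV against MII (adjusted p = 0.904). A second probe set gave -1.79 ± 0.15 and 1.78 ± 0.15 in the MIII comparisons. VLDLR, a lipoprotein receptor that ATF4 also raises, followed with a fall of 0.60 ± 0.17 in MIV against MIII (adjusted p = 0.00982, and 0.0562 without MIII replicate 3) and a rise of 0.70 ± 0.17 in MIII against MII (adjusted p = 0.00413), at means of 157 ± 10.4 in MIV, 248 ± 41.3 in MIII and 145 ± 19.6 in MII (signal, SD, n = 3 each). On 3 arrays against 3, an exact two-sided permutation test cannot give a p under 0.1, and it gave 0.1 for the called changes of TRIB3, STC2 and DDIT3.

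Across the 15 tested ATF4 branch members, 2 rose and 10 fell in MIV against MIII, 4 rose and 1 fell in MIV against MII, and 9 rose and 2 fell in MIII against MII. Their median change was -0.27, 0.09 and 0.51 in that order. No direction is given for CEBPG. It counts among the 2 that rose in MIV against MIII and the 2 that fell in MIII against MII. The 14 ER members had 0 up and 10 down, 1 up and 5 down, and 10 up and 1 down, with medians of -0.46, -0.09 and 0.27 (limma; 1 was higher in MIV against MIII at an unadjusted p under 0.05). Of all genes tested, 25.3% were up and 26.6% down, 20.0% and 22.2%, and 22.9% and 24.3% in the same order. The 4 of 15 ATF4 branch members up in MIV against MII were near the share of all genes. Both sets therefore had more members up than down in MIII against MII and more down than up in MIV against MIII, and TRIB3 was the one member called against that direction.

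Genes of the same pathways outside the set were read from listed groups. Their counts are read beside the shares of all genes, which were 25.3% higher and 26.6% lower in MIV against MIII, 20.0% higher and 22.2% lower in MIV against MII, and 22.9% higher and 24.3% lower in MIII against MII. Of 13 other ER folding enzymes, 3 rose and 6 fell in MIV against MIII, and 5 rose and 3 fell in MIII against MII. The one called was HSPA13, a microsomal HSP70 relative, which fell by 1.40 ± 0.08 in MIV against MIII and rose by 1.81 ± 0.08 in MIII against MII. Its second probe set moved the same way by less, with -0.52 and 0.66. Of 13 other degradation and translocation genes, 1 rose and 9 fell in MIV against MIII (median -0.42), and 7 rose and 0 fell in MIII against MII (limma, median 0.23). The bars for each list show these counts as shares. Of 12 sensors, kinases and proteases of the response, 1 rose and 5 fell in MIV against MIII, and 3 rose and 1 fell in MIII against MII, where the share that rose was near that of all genes.

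Of 13 other ATF4-responsive genes tested, 8 rose and 2 fell in MIV against MIII, 8 rose and 3 fell in MIV against MII, and 2 rose and 3 fell in MIII against MII. The last counts were near the shares of all genes, and the difference between this list and the members was not tested. ATF3, a stress factor that ATF4 induces, had signals of 608, 721 and 646 in MIV, against 127, 119 and 92.0 in MIII and 130, 242 and 206 in MII. Its MIV arrays lay above all others, and its changes were 2.37 ± 0.20 in MIV against MIII (adjusted p = 2.22e-07) and 1.72 ± 0.20 in MIV against MII (adjusted p = 9.61e-06), although the dimmest of its probe sets gave -0.40 in MIV against MIII. VEGFA, the angiogenic growth factor, rose by 1.36 ± 0.07 and 1.73 ± 0.07 in the same comparisons, and its other probe sets gave 0.89 to 1.57 and 1.15 to 1.25. GDF15, a stress-induced hormone named after its values were seen, rose by 1.22 ± 0.05 and 1.02 ± 0.05. A dimmer GDF15 probe set gave 0.82 ± 0.28 and 0.51 ± 0.28 (limma adjusted p = 0.0285 and 0.186). ATF3, VEGFA and GDF15 thus shared with TRIB3 a higher level in MIV than in both other lines. ATF5, a sister factor of ATF4, fell by 1.85 ± 0.11 in MIV against MIII and by 1.24 ± 0.11 in MIV against MII. JDP2, a repressor that binds similar sites, had signals of 8.2, 21.6 and 50.8 in MIV, all under the pooled median, against 267, 330 and 263 in MIII and 153, 175 and 164 in MII, and no size of change is given for it. CTH, which makes cysteine, fell by 1.25 ± 0.22 in MIII against MII.

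Of 8 ATF4-responsive amino acid transporters, 1 rose and 6 fell in MIV against MIII, and 3 rose and 2 fell in MIII against MII. SLC7A11, the cystine importer, had signals of 1201, 1295 and 1067 in MIV, against 2623, 2705 and 2864 in MIII and 849, 1045 and 936 in MII. Its MIII arrays lay above all others, and it fell by 1.19 ± 0.09 in MIV against MIII and rose by 1.52 ± 0.09 in MIII against MII. SLC6A9, a glycine transporter, had -1.18 ± 0.21 and 1.29 ± 0.21 in those comparisons. SLC7A11, SLC6A9 and SLC38A2, like STC2, had their highest mean in MIII. SLC7A5, SLC1A5 and SLC3A2 had theirs in MII, and SLC7A1 had its highest in MIV. The arrays of SLC1A4 overlapped in every pair of lines. SLC7A5 averaged 7589 in MIV, 12870 in MIII and 14536 in MII. The cytosolic tRNA synthetases, which charge tRNAs with amino acids, had 1 of 15 up and 10 down in MIII against MII (median -0.18), 2 up and 6 down in MIV against MII, and 5 up and 3 down in MIV against MIII, the last near the shares of all genes.

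**Figure D5:**
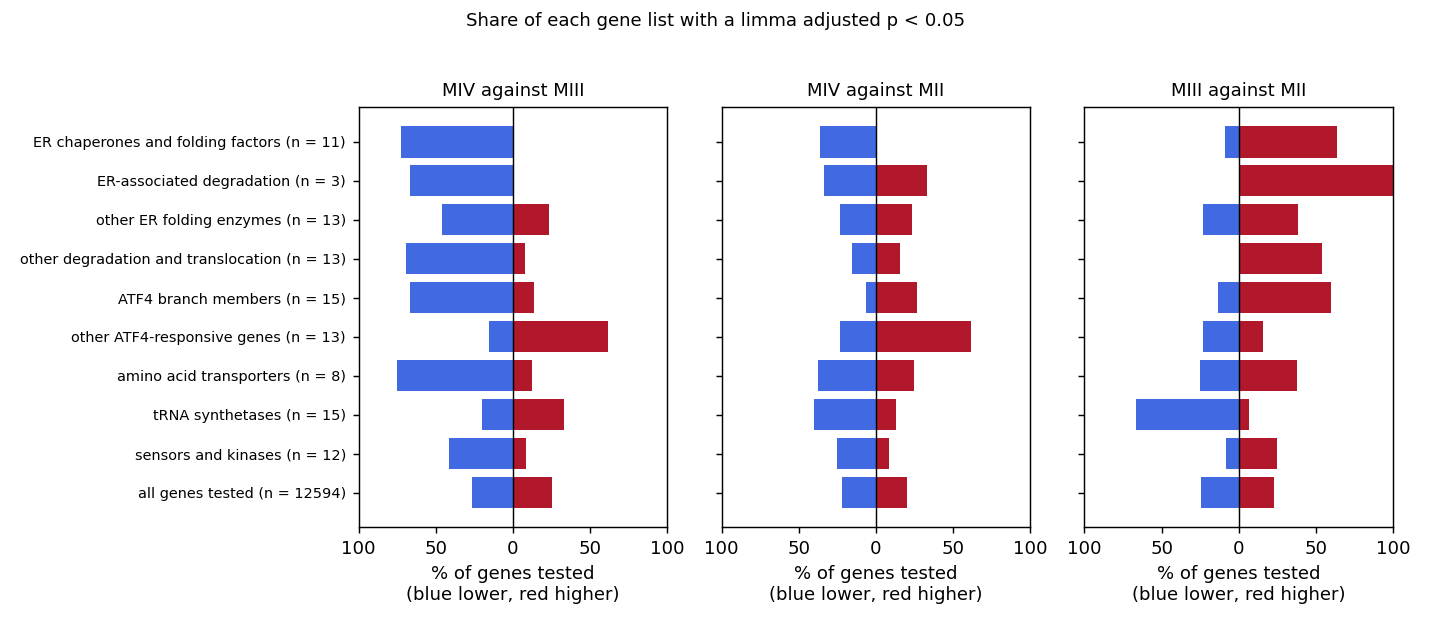
Share of the tested genes of each list (rows, n in the labels) with an adjusted p under 0.05, in the 3 comparisons. Red bars to the right count genes that rose and blue bars to the left genes that fell, in percent, and the lowest row gives all 12594 genes. In MIV against MIII the chaperone row has 8 of 11 down, while the other ATF4-responsive genes have 8 of 13 up.

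Probe sets of the same gene mostly had one direction. Among 18 members with 29 other probe sets above the pooled median, 21, 19 and 22 had the sign of the one used in MIV against MIII, MIV against MII and MIII against MII. Both the used and the other probe set passed the test with opposite signs in 1, 0 and 2 cases, those of CEBPG and ATF6. Apart from the genes named above, other probe sets differed in sign for PDIA6 and PPP1R15A in MIV against MII, for PSPH, MTHFD2 and CALR, and for STC2 in MIV against MII, where changes were small.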

How the data were processed

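The deposited values are intensities that the authors made with MAS5, per the submitters' processing notes, and are linear, with a signal for each probe set. The sources used here name no MAS5 version. Each array had been brought to one scale, since trimmed means were 500 to 501.1. Of 54675 probe sets, 62 were controls and 41091 were annotated to 1 gene.

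Signals were tested as log2(signal + 18.3), the offset being the pooled 25th percentile. Genes needed 3 of 9 arrays above the pooled median of 69.3, which left 12594. A group-means model over all 9 arrays, with 6 residual degrees of freedom and a variance trend on intensity, was fitted under R 4.3.3 with limma 3.58.1 and tested on simulated data. A recovery threshold first set for that test was missed for the smallest changes and, once this was seen, was replaced by criteria on bias, false calls and recovery rising with size. The fit was not changed. The median SE of a change was 0.107.

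Members and lists were chosen with earlier results of these data known. Array values are given for called members and for the member with the highest mean signal in each role group, for up to 3 called genes per pathway list by size, and otherwise where stated. Deviations of arrays with the same replicate number from their group means correlated between -0.0392 and 0.0393, so the numbers do not pair arrays. Alternatives changed the offset, normalization, filter, probe set choice, weights and arrays. Promoter windows are from RefSeq (GRCh38.p14).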

Additional observations from a re-analysis of the deposited data

How the results depend on the processing

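No called change of TRIB3, STC2 or DDIT3 changed sign under any alternative, while ATF6 and CEBPG, which passed the adjusted p alone, changed sign in MIV against MIII with the mean of all probe sets. ASNS and XBP1 did so too, but by averaging in a probe set under the filter, which says nothing about these genes. SDF2L1 in MIV against MII, HERPUD1 in MIII against MII, ASNS in MIV against MIII and CEBPG in MIII against MII kept an adjusted p under 0.05 in 11 of 21, 14 of 21, 9 of 21 and 7 of 22 alternatives. Leaving out each array in turn gave 1 member called higher in MIV against MIII and 1 to 2 lower, 1 higher and 0 lower in MIV against MII, and 1 to 3 higher and 0 lower in MIII against MII. By adjusted p alone these were 3 to 6 and 18 to 20, 5 to 7 and 4 to 6, and 18 to 20 and 4 to 6. Medians ran from -0.48 to -0.43, -0.15 to -0.065 and 0.27 to 0.33 for the ER members, and from -0.29 to -0.23, 0.03 to 0.10 and 0.43 to 0.53 for the ATF4 branch. CRELD2 or NUPR1 reached 2-fold in MIV against MIII without MIII replicate 1 or 3 or MIV replicate 1 or 2, giving 2 lower. CRELD2 also did so with quantile (2 lower) and loess normalization (2 lower). Without MII replicate 1, DDIT3 lost its call in MIII against MII, leaving 1 member higher, as it did with the pooled median as offset (1). With a filter at the pooled 75th percentile it was not tested, which also left 1. With no fold threshold 4 members were higher and 20 lower in MIV against MIII, 6 higher and 6 lower in MIV against MII, and 20 higher and 5 lower in MIII against MII, and with a 4-fold one 0 were lower in MIV against MIII, 0 higher in MIV against MII and 0 higher in MIII against MII. By adjusted p, the mean of all probe sets left 1 higher in MIV against MIII and 2 lower in MIII against MII, suffix-free probe sets (22 members) left 12 lower in MIV against MIII and 3 lower in MIII against MII, and equal medians left 3 lower in MIV against MII. The ER median moved to -0.51 (loess) and -0.32 (suffix-free) in MIV against MIII, and to -0.043 (equal medians), -0.15 (mean of probe sets) and -0.21 (suffix-free) in MIV against MII. The ATF4 median moved in MIV against MIII to -0.19 (75th percentile filter), -0.35 (mean) and -0.38 (suffix-free), in MIV against MII to 0.012 (mean), and in MIII against MII to 0.42 (no filter), 0.33 (75th percentile filter), 0.34 (mean) and 0.42 (suffix-free). Of the ATF4 branch, 6 members had their highest mean in MIII on suffix-free probe sets. The cause of these shifts was not tested beyond the fewer genes that filters and suffix-free probe sets leave.

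The replicate numbers do not pair the arrays. With a replicate block, 1 member was called higher and 1 lower in MIV against MIII, 1 higher in MIV against MII and 2 higher in MIII against MII, and by adjusted p it was 5 up and 19 down for MIV against MIII. With it SDF2L1 passed 0.05 no longer in MIV against MII, nor ASNS in MIV against MIII. A bacterial spike-in, bioB, was brighter on the array of MIV replicate 3 (3133) than on the others (1001 to 1523). The limits are 3 arrays per line, 1 line per stage, dim probe sets near the offset, signals that are not comparable between probe sets, and mRNA levels that show neither splicing nor translation.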
